A study of Rattus norvegicus with 30 samples.

Results

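Retinoid-metabolising enzymes set how much retinoic acid, the active form of vitamin A, a cell holds. The 8 enzymes described here, Cyp26a1, Cyp26b1, Dhrs3, Rdh10, Aldh1a1, Aldh1a2, Aldh1a3 and Lrat, were taken by gene name from a table of 30562 genes, and each had 1 row. All 8 passed the filter on low counts, which left 16171 genes for testing. They were followed across 3 vitamin A diets within sham and within Glenn surgery, in CD31+ cells sorted from rat lung with microbeads. CD31, the product of Pecam1, is a surface protein of endothelial cells.

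In the retinoid pathway, retinol is first oxidised to retinaldehyde, a step that Rdh10 carries out and Dhrs3 runs in reverse. The retinaldehyde dehydrogenases Aldh1a1, Aldh1a2 and Aldh1a3 then make retinoic acid, which binds nuclear receptors and switches target genes on. Cyp26a1 and Cyp26b1 are cytochrome P450 enzymes that break retinoic acid down, and Lrat esterifies retinol for storage. Cyp26a1, Cyp26b1, Dhrs3 and Lrat are themselves known as genes that retinoic acid can induce. In the lung, retinoic acid is known for its part in growth and in the formation of alveoli.

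All animals were wild-type rats, and cells were collected 3 weeks after the operation. The Glenn operation leads caval blood straight into the pulmonary artery, and sham animals are its surgical controls. Each operation was combined with 1 of 3 diets, the vitamin A control, the vitamin A deficient and the vitamin A excess diet, and each of the 6 groups held 5 libraries. The labels do not give the animals' age, strain or sex, or whether each library came from its own animal, so the p-values measure only the spread between these libraries. The values are estimated counts, given as CPM, TMM-scaled counts in every 1 M of a library (M is mega). No gene lengths were used, so levels are compared between groups of libraries and not between genes.

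Totals ran from 22 to 77.6 M counts per library (median 40 M). Endothelial Pecam1 was at 971 to 1730 CPM after sham and 863 to 1400 CPM after Glenn surgery. The other listed endothelial markers went both ways. From sham to Glenn libraries, the medians fell for Kdr (1230 to 715 CPM), Tek (1240 to 883 CPM) and Cdh5 (2410 to 2080 CPM). They rose for Tie1 (924 to 1110 CPM) and Erg (90.5 to 134 CPM). Of the 5 leukocyte markers, 4 were detected in every library and T-cell Cd3e was at 0 in some, with sums of 14.7 to 68 CPM. The 5 type 2 alveolar markers summed to at least 24400 CPM in each library, so epithelial RNA was present in the sorted cells. The libraries fall in 2 number series, 22 in series A and 8 in series B. Series B holds sham deficient replicates 3 to 5, Glenn deficient replicates 4 and 5 and Glenn excess replicates 3 to 5. The histocompatibility gene RT1-CE16 was above 100 CPM in 13 libraries, namely all of series B together with replicates 3 to 5 of sham control and 4 and 5 of Glenn control. Ddx3y, a Y-linked gene, was above 10 CPM in 13 libraries, and each group held libraries above and below that level. Series is a term in the fit, and results that move with these splits are given with and without them.

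The promoters of 7 of the 8 enzymes were searched for retinoic acid response elements, and those of Cyp26a1, Cyp26b1 and Dhrs3 are shown. Such elements are pairs of half-sites in the same orientation, to which retinoic acid receptors bind. The sequences are the 250 bases before the start of each gene in RefSeq (build GRCr8), 5′ to 3′ on the strand of the gene. Cyp26a1 lies at chr1:244883572-244883821 on the plus strand, Cyp26b1 at chr4:118616177-118616426 on the minus strand and Dhrs3 at chr5:162031603-162031852 on the plus strand. Capitals mark a direct repeat.
Cyp26a1: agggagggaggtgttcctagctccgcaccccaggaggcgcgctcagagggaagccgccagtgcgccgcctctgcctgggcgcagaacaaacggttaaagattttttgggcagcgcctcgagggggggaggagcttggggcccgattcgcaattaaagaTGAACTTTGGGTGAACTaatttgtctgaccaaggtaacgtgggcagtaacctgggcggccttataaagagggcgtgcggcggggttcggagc
Cyp26b1: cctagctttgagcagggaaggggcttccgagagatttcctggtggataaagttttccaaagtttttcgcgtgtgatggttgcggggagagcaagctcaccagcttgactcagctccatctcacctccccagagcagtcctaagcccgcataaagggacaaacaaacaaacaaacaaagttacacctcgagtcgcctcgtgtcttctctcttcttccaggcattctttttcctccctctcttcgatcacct
Dhrs3: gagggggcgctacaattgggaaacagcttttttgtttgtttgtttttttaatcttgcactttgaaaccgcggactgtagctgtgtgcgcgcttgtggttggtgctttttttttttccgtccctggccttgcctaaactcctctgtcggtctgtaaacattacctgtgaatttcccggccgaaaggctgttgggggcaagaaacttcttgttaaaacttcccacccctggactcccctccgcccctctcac
The half-sites searched on both strands were the sequence AGGTCA, its variant form AGTTCA, a further variant spelled GGTTCA and the related form GGGTCA, in direct repeats with spacers of 1, 2 or 5 bases. Of the 8 enzymes, 7 had a promoter in the RefSeq table, with Rdh10 the one without. A single direct repeat was found among the 7, in Cyp26a1, read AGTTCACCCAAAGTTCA on the minus strand with a spacer of 5 bases, from 92 to 76 bases before the start. Direct repeats with that spacer were present in 0.326% of 33469 promoters of the same length, with a spacer of 1 in 0.194% and with a spacer of 2 in 0.137%. A match describes letters in this window and is not evidence of binding.

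Cyp26b1, which clears retinoic acid, was higher in every excess library than in every deficient library after both operations. After sham surgery, the deficient libraries held 29.8, 82.7, 42.1, 43.3 and 33.7 CPM, the control libraries 83.3, 78.2, 103, 67.2 and 86.3 CPM and the excess libraries 144, 175, 118, 130 and 256 CPM, in the order of replicates 1 to 5. Every sham excess library lay above every sham control and every sham deficient library, and among the deficient libraries replicate 2 reached the control range. After Glenn surgery the deficient libraries held 16.2, 9.5, 21.8, 13 and 18.5 CPM, the control libraries 45.6, 17.8, 11.3, 10.6 and 10.1 CPM and the excess libraries 37.2, 36, 46.7, 43.4 and 45.4 CPM. The Glenn excess libraries all lay above the Glenn deficient ones, whereas the control group overlapped both, with replicate 1 inside the excess range. For these and later groups that lay apart, the share of all genes that did so was not counted.

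**Figure D1:**
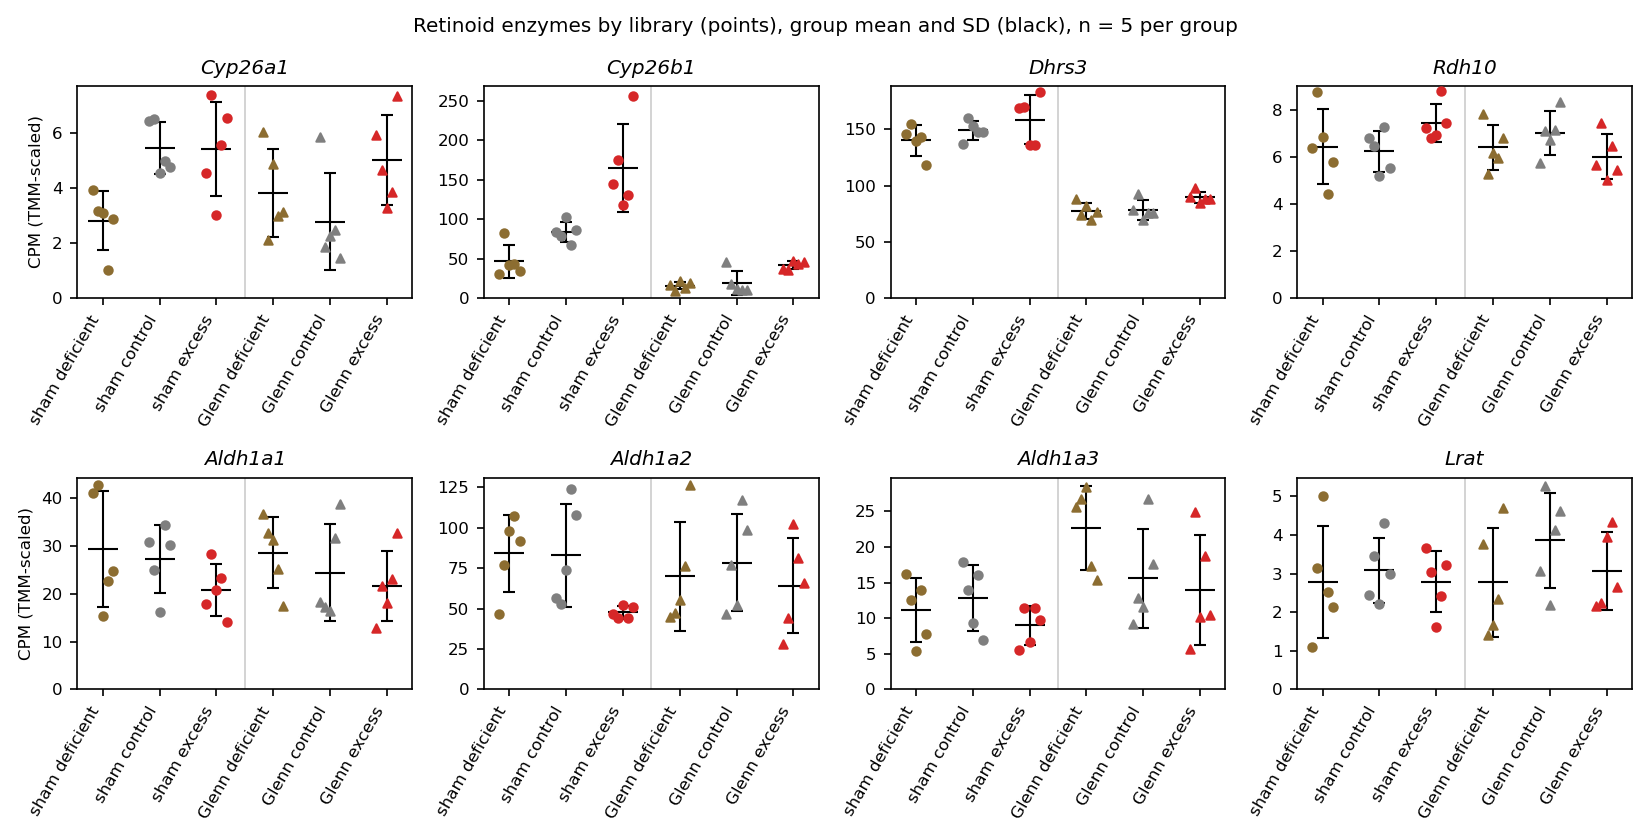
Level of each enzyme in CPM after TMM scaling (vertical axes from 0, a scale per gene) for the 6 groups; circles are sham libraries, triangles Glenn libraries, and black marks the mean and SD of 5 libraries. Cyp26b1 steps up from the deficient to the excess diet after sham, Dhrs3 separates by surgery and Aldh1a2 is tightly grouped at 43.9 to 52.2 CPM in the sham excess group.

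Averaged over both operations, Cyp26b1 was higher on the excess than on the deficient diet by a log2 change of 1.61 (SE 0.25, 95% interval 1.09 to 2.13), or 3.05-fold. It ranked first by p and was the 1 gene of 16171 that passed the threshold (edgeR quasi-likelihood test, adjusted p 0.0205; 0.00618% of genes called), with 1113 genes at an unadjusted p under 0.05. After sham alone the log2 change was 1.79 (SE 0.39, edgeR unadjusted p 0.000101, adjusted p 0.294), and after Glenn alone it was 1.43 (SE 0.36, edgeR unadjusted p 0.000581, adjusted p 0.406). Neither single comparison called any of the 8 enzymes, against 0.0124% of all genes after sham and 0% after Glenn surgery. The difference between the operations was -0.36 (95% interval -1.47 to 0.75, edgeR adjusted p 1), so the diet step was not shown to differ between them. In a bulk sample, fewer cells of a type and less RNA per cell cannot be told apart.

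The averaged call for Cyp26b1 stood close to the threshold. It was lost in series A alone (log2 change 1.38, edgeR adjusted p 0.21), within the RT1-CE16-low libraries (1.38, adjusted p 0.249), without the low-count filter (1.61, adjusted p 0.0512) and with mesothelial, fibroblast and mural marker scores as covariates (1.48, adjusted p 0.667). It was also lost without any 1 of 7 libraries, which were sham deficient 5, sham excess 5, Glenn deficient 1, 2 and 4, and Glenn excess 3 and 5, with log2 changes of 1.50 to 1.61 and edgeR adjusted p-values of 0.0574 to 0.0861. DESeq2 gave an adjusted p of 5.75e-06 and limma voom 1.05e-05. The log2 change had the same sign in each of these fits, and without sham deficient replicate 2, the library in the control range, it was 1.83. Sham excess holds series A only and sham deficient mostly series B, and the series A libraries alone gave log2 changes of 1.54 after sham and 1.21 after Glenn surgery. Without Glenn control replicate 1, which enters only through the spread, the sham comparison passed as well (1.79, edgeR adjusted p 0.0155).

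**Figure D2:**
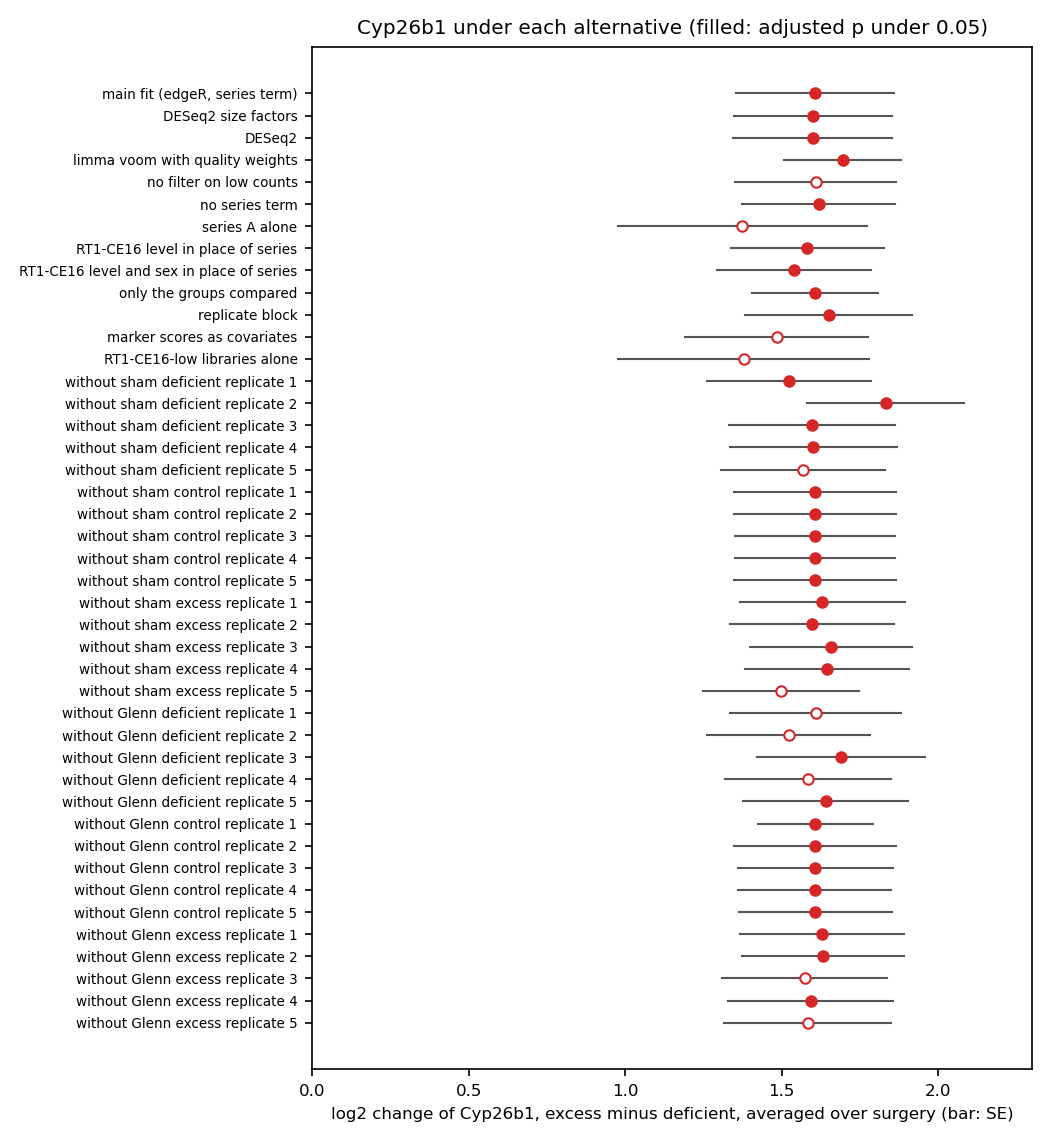
Log2 change of Cyp26b1 between the excess and deficient diets, averaged over surgery (horizontal axis; bars are SE), in the fit reported here and each alternative; filled points have an adjusted p under 0.05. The values lie between 1.38 and 1.83, and 11 of the alternatives are open.

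Cyp26a1, the second enzyme that breaks down retinoic acid, gave no diet call. After sham it stood at 3.93, 3.18, 3.08, 1.03 and 2.86 CPM on the deficient diet, at 6.43, 6.5, 4.56, 4.98 and 4.76 CPM on the control diet and at 4.56, 7.39, 3.02, 5.57 and 6.55 CPM on the excess diet. All sham deficient libraries lay below all sham control libraries, while the control and excess libraries shared a range. The log2 change from the control to the deficient diet after sham was -0.73 (SE 0.37, 95% interval -1.50 to 0.03) and missed the threshold (edgeR adjusted p 0.955).

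After Glenn surgery Cyp26a1 held 6.04, 2.11, 4.89, 2.97 and 3.13 CPM with deficiency, 5.84, 1.87, 2.25, 2.46 and 1.44 CPM with the control and 5.92, 4.65, 3.27, 3.86 and 7.35 CPM on the excess diet. The 3 diets overlapped there, and 4 of 5 control libraries lay below every excess library, with replicate 1 the exception. Excess against deficient, averaged over surgery, gave a log2 change of 0.61 (SE 0.24, edgeR unadjusted p 0.0174, adjusted p 0.619). Its promoter, with the direct repeat printed above, and its diet values are set side by side here and were not tested against each other.

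Dhrs3, which returns retinaldehyde to retinol, moved little with diet. After sham it was at 146, 155, 140, 143 and 118 CPM on the deficient diet, 137, 160, 153, 148 and 148 CPM on the control and 169, 170, 136, 136 and 183 CPM on the excess diet. After Glenn surgery it was at 87.8, 73.6, 81.5, 69.3 and 76.6 CPM, 78.1, 92.7, 69.5, 75.7 and 75.4 CPM, and 89.5, 98.1, 84.5, 87.9 and 88.2 CPM in the same order of diets. The diets overlapped within each operation, and the log2 change from deficient to excess was 0.10 after sham and 0.24 after Glenn surgery (edgeR adjusted p 1 and 0.802). Averaged over surgery it was 0.17 (SE 0.06, 95% interval 0.04 to 0.29, edgeR adjusted p 0.589).

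The enzymes that make retinaldehyde and retinoic acid, and the storage enzyme Lrat, gave no diet call. From deficient to excess, averaged over surgery, the log2 changes were 0.02 for Rdh10, -0.47 for Aldh1a1, -0.27 for Aldh1a2, -0.58 for Aldh1a3 and 0.22 for Lrat (edgeR adjusted p 0.66 to 0.989). The signs of the 3 retinaldehyde dehydrogenases were opposite to those of the 2 Cyp26 genes. The 95% intervals were -0.20 to 0.24 for Rdh10, -0.88 to -0.05 for Aldh1a1, -0.63 to 0.09 for Aldh1a2, -1.08 to -0.07 for Aldh1a3 and -0.25 to 0.69 for Lrat, before any adjustment over genes. Across all 8 enzymes, 5 were higher and 3 lower, with a median log2 change of 0.09 against 0.00 over all genes tested. At an edgeR unadjusted p under 0.05 were 5 of 8 enzymes, against 6.88% of all genes. After sham alone it was 2 of 8 against 5.28%, and after Glenn alone 2 of 8 against 5.18%. The enzymes were not tested as a set.

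**Figure D3:**
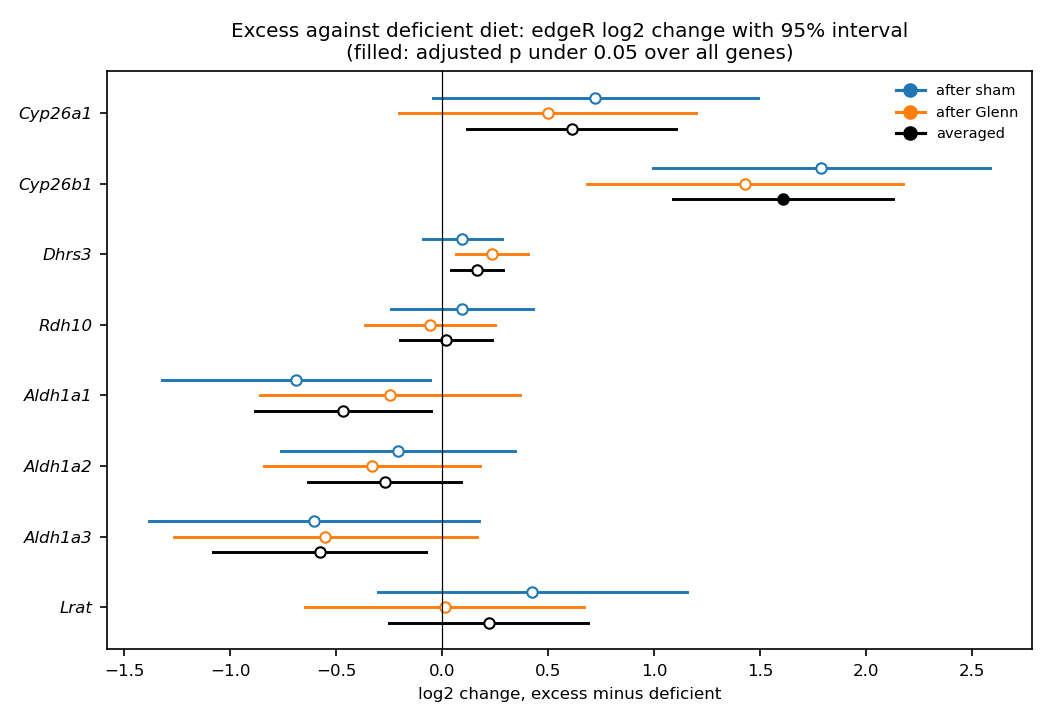
Log2 change from the deficient to the excess diet (horizontal axis) with its 95% interval for each enzyme, after sham, after Glenn and averaged; filled points have an edgeR adjusted p under 0.05 over all genes. Only the averaged value of Cyp26b1, 1.61, is filled, and the retinaldehyde dehydrogenases lie to the left of 0.

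Against the control diet, 0 of 8 enzymes passed the edgeR threshold in any of 4 comparisons. After sham, the excess diet called 0.241% of all genes (0.155% higher, 0.0866% lower) and the deficient diet 0%. After Glenn surgery, the excess diet called 1.47% (0.89% higher, 0.575% lower) and the deficient diet 0.00618%. At an unadjusted p under 0.05 were 5 of 8 enzymes with the excess diet after Glenn surgery, where 13.9% of all genes were, and 2 of 8 in each of the other comparisons, where the share of all genes was 11.1% for the excess diet in sham rats, 5.22% for the deficient diet in sham rats and 9.88% for the deficient diet in Glenn rats. The 2 comparisons after an operation share their control libraries. Without Glenn control replicate 1, the library with the highest Cyp26a1 and Cyp26b1 of its group, 3 enzymes (Cyp26a1, Cyp26b1 and Aldh1a2) passed with the excess diet after Glenn surgery. Leaving out Glenn control replicate 2 let Dhrs3 pass there, and leaving out sham deficient replicate 2 or Glenn excess replicate 3 let Aldh1a2 pass. DESeq2 called 1 enzyme there (Aldh1a2) and limma voom 2 (Cyp26a1 and Cyp26b1). The number of all genes called there moved as well, from 237 in the reported fit to 557 without Glenn control replicate 1. It was 320 without Glenn control replicate 2, 403 without sham deficient replicate 2 and 331 without Glenn excess replicate 3. DESeq2 called 531 genes and limma voom 375.

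Aldh1a2 had the smallest edgeR adjusted p in each of these 4 comparisons, and its level followed the mesothelial markers of the library. Mesothelial cells line the lung surface and are a known site of Aldh1a2 expression. After sham Aldh1a2 stood at 46.4, 77, 97.9, 107 and 91.9 CPM on the deficient diet, 56.2, 52.5, 73.7, 124 and 108 CPM on the control and 46.6, 44.1, 52.2, 43.9 and 50.9 CPM on the excess diet. Every sham excess library lay below every sham control library, the nearest at 52.2 and 52.5 CPM, and the edgeR log2 change was -0.80 (SE 0.25, adjusted p 0.179). Both groups hold series A only, so the series term does not adjust this difference. Sham control replicates 3 to 5, at 73.7, 124 and 108 CPM, were RT1-CE16-high, and all sham excess libraries were RT1-CE16-low. The summed level of the 5 mesothelial markers Wt1, Msln, Upk3b, Upk1b and Lrrn4, each detected in every library, was 256 to 313 CPM in sham excess and 370 to 617 CPM in sham control.

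After Glenn surgery Aldh1a2 was at 44.7, 47.3, 55.5, 76.1 and 126 CPM on the deficient diet, 46.9, 76.9, 52.2, 117 and 98.5 CPM on the control and 28.3, 43.9, 102, 80.9 and 65.8 CPM on the excess diet. The 3 ranges overlapped, and the mesothelial sums did too (273 to 580, 327 to 725 and 177 to 543 CPM in that order). The log2 change from control to excess was -0.98 (SE 0.28, edgeR adjusted p 0.0766) with the series term and -0.29 without it. With the 3 marker scores as covariates, the log2 changes from control to excess were 0.08 after sham and 0.15 after Glenn surgery. The part of mesothelial cells in the diet values of Aldh1a2 was not tested.

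Across the 15 sham libraries the log2 level of Aldh1a2 and the mesothelial score had a Pearson r of 0.971 and a Spearman rho of 0.936, and across the 15 Glenn libraries 0.977 and 0.975. The permutation p-values, adjusted over 224 relations of 8 enzymes with 14 marker lists in both operations, were 0.000747 for each r and 0.00112 for each rho. Libraries were permuted within an operation across diets and series, so differences between those groups enter all these relations. Without the 2 libraries farthest in score, r was 0.956 and 0.964. Within RT1-CE16-low libraries r was 0.871 after sham and 0.985 after Glenn surgery, and within RT1-CE16-high libraries it was 0.898 and 0.920, so the relation was present on both sides of that split.

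Aldh1a2 was also the 1 enzyme of 8 that followed the library splits. After sham it was at 43.9 to 77 CPM (median 50.9) in 9 RT1-CE16-low and 73.7 to 124 CPM (median 103) in 6 RT1-CE16-high libraries. After Glenn surgery it was at 28.3 to 76.9 CPM (median 47.1) in 8 low and 65.8 to 126 CPM (median 98.5) in 7 high libraries. The RT1-CE16 term had an edgeR log2 change of 0.94 (SE 0.11, adjusted p 3.55e-06), where 6.53% of genes passed, and the series term one of 0.97 (SE 0.21, edgeR adjusted p 0.0152), where 1.64% passed. With the RT1-CE16 term in place of the series, the log2 change from control to excess was -0.18 after sham and -0.52 after Glenn surgery.

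Aldh1a1 and Aldh1a3, which also make retinoic acid, followed other marker lists. The level of Aldh1a1 after sham had an r of 0.893 and a rho of 0.886 with the 3 club cell markers (adjusted permutation p 0.000896 and 0.00112), and 0.918 and 0.811 with the 4 ciliated cell markers (0.000896 and 0.0161). Both relations were present within RT1-CE16-low (0.984 and 0.935) and high libraries (0.726 and 0.878), and without the 2 farthest libraries r was 0.832 and 0.903. Of the ciliated markers, Foxj1, Rsph1 and Dynlrb2 reached at most 4.93, 3 and 3.9 CPM in sham libraries, where Tppp3 was at 292 to 417 CPM. The Tppp3 median was 338 CPM in sham and 167 CPM in Glenn libraries, while the medians of the others were higher in Glenn libraries. After Glenn surgery the r of Aldh1a1 was 0.617 with the club and 0.508 with the ciliated markers (adjusted permutation p 0.136 and 0.257). It was related there to the 7 fibroblast markers by r (0.766, adjusted permutation p 0.0314; 0.679 without the 2 farthest libraries) but not by rho (0.668, adjusted p 0.125), with r of 0.962 within RT1-CE16-low and 0.449 within high libraries.

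Aldh1a3 after Glenn surgery had an r of 0.901 and a rho of 0.889 with the fibroblast markers (adjusted permutation p 0.000747 and 0.00112), and 0.868 without the 2 farthest libraries. Within RT1-CE16-low libraries that r was 0.954 and within high ones 0.705. After sham the values were 0.673 and 0.654 (adjusted permutation p 0.0993 and 0.125). Between the operations these relations were not compared by a test.

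**Figure D4:**
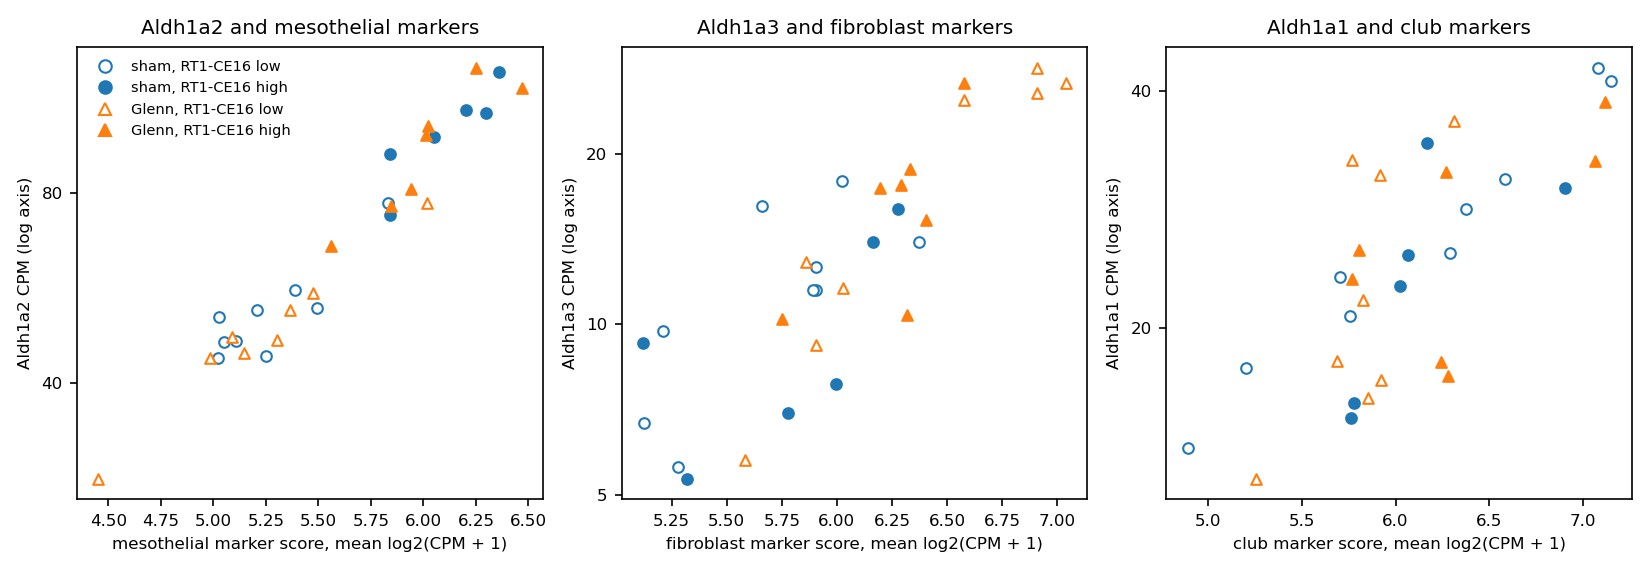
Level of Aldh1a2, Aldh1a3 and Aldh1a1 in CPM (vertical log axes) against the mesothelial, fibroblast and club cell marker scores (horizontal axes, mean log2(CPM + 1)) in each of 30 libraries; circles are sham, triangles Glenn, and filled symbols RT1-CE16-high. Aldh1a2 follows the mesothelial score in both operations, with r of 0.971 and 0.977, and the high libraries lie mostly at its upper end.

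Neither Cyp26b1 nor Dhrs3 had a relation past the adjusted threshold with any of the 14 marker lists. Their highest r after Glenn surgery was 0.616 for Cyp26b1 (arterial markers, adjusted permutation p 0.141) and 0.718 for Dhrs3 (venous markers, adjusted permutation p 0.0679). With the general capillary markers, the r of Cyp26b1 was 0.590 after sham and 0.611 after Glenn surgery (adjusted permutation p 0.153 and 0.137). The mean score of these markers was higher on the excess than on the deficient diet after sham (9.817 and 9.634) and after Glenn surgery (9.383 and 9.208). That score was not a covariate in any fit, and its part in the diet step of Cyp26b1 was not tested. Cyp26a1 after Glenn surgery was related to the general capillary markers (r 0.766, rho 0.771) and the arterial markers (r 0.799, rho 0.779), with adjusted permutation p-values of 0.0198 for each r and 0.0352 for each rho. Without the 2 farthest libraries these r were 0.714 and 0.789, and within RT1-CE16-low and high libraries they were 0.699 and 0.856 for general capillary and 0.718 and 0.900 for arterial markers. After sham the r of Cyp26a1 was 0.652 with the general capillary and 0.397 with the arterial markers (adjusted permutation p 0.0993 and 0.442). In Glenn libraries the group mean of Cyp26a1 was lowest on the control diet (2.77 CPM) and highest on the excess diet (5.01 CPM). The general capillary scores (8.979 and 9.383) and arterial scores (6.382 and 6.708) had the same order, so these relations hold differences between diets. Lrat after Glenn surgery was related to the mesothelial markers by rho (0.764, adjusted permutation p 0.0409) but not by r (0.693, adjusted p 0.0868; 0.709 without the 2 farthest libraries, 0.525 and 0.664 within RT1-CE16-low and high libraries), and after sham r was 0.396 (adjusted permutation p 0.442).

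Cyp26b1 and Dhrs3 fell after Glenn surgery on every diet. For each of these 2 genes, all Glenn libraries lay below all sham libraries of the same diet. The share of all genes that separated in this way was not counted. Cyp26b1 went from 98.1 ± 60.6 to 25.6 ± 14.9 CPM (SD, n = 15 each), and its log2 change averaged over diets was -1.88 (SE 0.21, edgeR adjusted p 5.31e-08). Dhrs3 went from 149 ± 16.4 to 81.9 ± 8.69 CPM (SD, n = 15 per operation; edgeR log2 change -0.85, SE 0.05, adjusted p 8.4e-15), and none of its 15 Glenn libraries reached any sham library. Surgery called 48.2% of all genes (24.7% lower, 23.4% higher), so 3 called enzymes of 8 is near the background.

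By diet, the log2 change of Cyp26b1 was -2.13 on the control diet (SE 0.36, edgeR adjusted p 5.77e-05), -1.57 on the deficient diet (SE 0.36, edgeR adjusted p 0.00166) and -1.93 on the excess diet (SE 0.40, edgeR adjusted p 0.000935). For Dhrs3 it was -0.93, -0.88 and -0.74 in that order (SE 0.08, 0.08 and 0.09, largest edgeR adjusted p 4.8e-07). Surgery called 24.9%, 27.4% and 21.9% of all genes on these diets, and 3, 2 and 2 of the 8 enzymes. Among RT1-CE16-low libraries Cyp26b1 no longer passed on the control (-1.69, edgeR adjusted p 0.0877) and deficient diets (-1.83, adjusted p 0.0524), and without Glenn control replicate 1 the control-diet value was -2.74. Of the 4 general capillary markers, Plvap had a median of 5160 CPM in sham libraries and 1410 CPM in Glenn libraries. The medians of the other 3 were 880 and 736 CPM for Aplnr, 895 and 855 CPM for Cd93 and 126 and 122 CPM for Gpihbp1. The part of these cells in the 2 enzymes' changes was not tested.

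Taken by level, the 6 groups ordered for Cyp26b1 as Glenn deficient (15.8 ± 4.78 CPM), Glenn control (19.1 ± 15.2), Glenn excess (41.8 ± 4.84), sham deficient (46.3 ± 21.1), sham control (83.5 ± 12.9) and sham excess (165 ± 55.7; SD, n = 5 each). Neighbours in this order overlapped except the last pair. The Glenn excess libraries, at 36 to 46.7 CPM, lay within the range of the sham deficient ones. For Dhrs3 the same order held, from 77.8 ± 7.15 CPM in Glenn deficient to 159 ± 21.6 CPM in sham excess, and the one gap between neighbours was that between the operations, from Glenn excess (89.6 ± 5.08) to sham deficient (140 ± 13.8).

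Cyp26a1 passed the threshold for surgery on the control diet alone, with 5.45 ± 0.944 CPM in sham and 2.77 ± 1.76 CPM in Glenn libraries (SD, n = 5 per group; edgeR log2 change -0.98, SE 0.34, adjusted p 0.0312). Its Glenn replicate 1, at 5.84 CPM, lay within the sham range, and without it the log2 change was -1.44 (edgeR adjusted p 0.000967). The call was lost without any 1 of sham control 1 or 2 or Glenn control 2, 3, 4 or 5 (edgeR adjusted p 0.0619 to 0.0893) and within RT1-CE16-low or high libraries (-0.96 and -1.28, adjusted p 0.246 and 0.0696). On the deficient and excess diets the log2 changes were 0.37 and 0.14 (edgeR adjusted p 0.467 and 0.836). Whether the control-diet value differs from these was not tested.

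Aldh1a3 was higher after Glenn surgery when averaged over diets, with 11 ± 4.05 CPM in sham and 17.4 ± 7.47 CPM in Glenn libraries (SD, n = 15 per operation; edgeR log2 change 0.72, SE 0.20, adjusted p 0.00427). Its sham libraries held 16.2, 12.6, 5.34, 14 and 7.85 CPM on the deficient diet, 17.9, 14, 9.27, 16 and 6.97 CPM on the control and 5.6, 11.5, 6.7, 11.5 and 9.74 CPM on the excess diet. Its Glenn libraries held 25.6, 26.7, 28.4, 17.4 and 15.3 CPM, 9.2, 12.9, 11.6, 26.7 and 17.6 CPM, and 5.75, 24.9, 10.2, 18.8 and 10.4 CPM. The operations overlapped on each diet, and no single diet gave a call (edgeR adjusted p 0.604, 0.0521 and 0.0758 on the control, deficient and excess diets). DESeq2, limma voom and the fit with a replicate block called Aldh1a3 on both the deficient and the excess diet. On the deficient diet it was also called with no series term, with RT1-CE16 level replacing the series term (with or without sex) and with the 2 groups alone. Leaving out any 1 of sham deficient 4, sham control 5, sham excess 1, Glenn control 1 or 4, or Glenn excess 1 or 2 gave the same call there, and leaving out Glenn excess 1 gave it on the excess diet.

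Fibroblast and mural markers, like Aldh1a3, were higher after Glenn surgery. Other lists moved with surgery too, some up (lymphatic sums of 1000 to 1920 CPM after sham and 2260 to 4930 CPM after Glenn) and some down (general capillary). Within an operation Aldh1a3 had no relation past the adjusted threshold with the mural markers (r 0.479 after sham and 0.374 after Glenn surgery, adjusted permutation p 0.261 and 0.472). The 7 fibroblast markers, each detected in every library, summed to 1280 to 3260 CPM after sham and 1810 to 4690 CPM after Glenn surgery, with the highest values in Glenn deficient (3070 to 4690 CPM), the group with the highest Aldh1a3. The 6 mural markers summed to 126 to 255 CPM and 341 to 1330 CPM. With these scores and the mesothelial score as covariates the log2 change of Aldh1a3 was -0.002, and it did not pass in series A alone (0.66, edgeR adjusted p 0.051) or within the RT1-CE16-low libraries (0.40, adjusted p 0.25). The mural sums did not overlap between the operations, so the fit with covariates cannot tell these markers apart from surgery. The part of these cells in the change of Aldh1a3 was not tested.

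**Figure D5:**
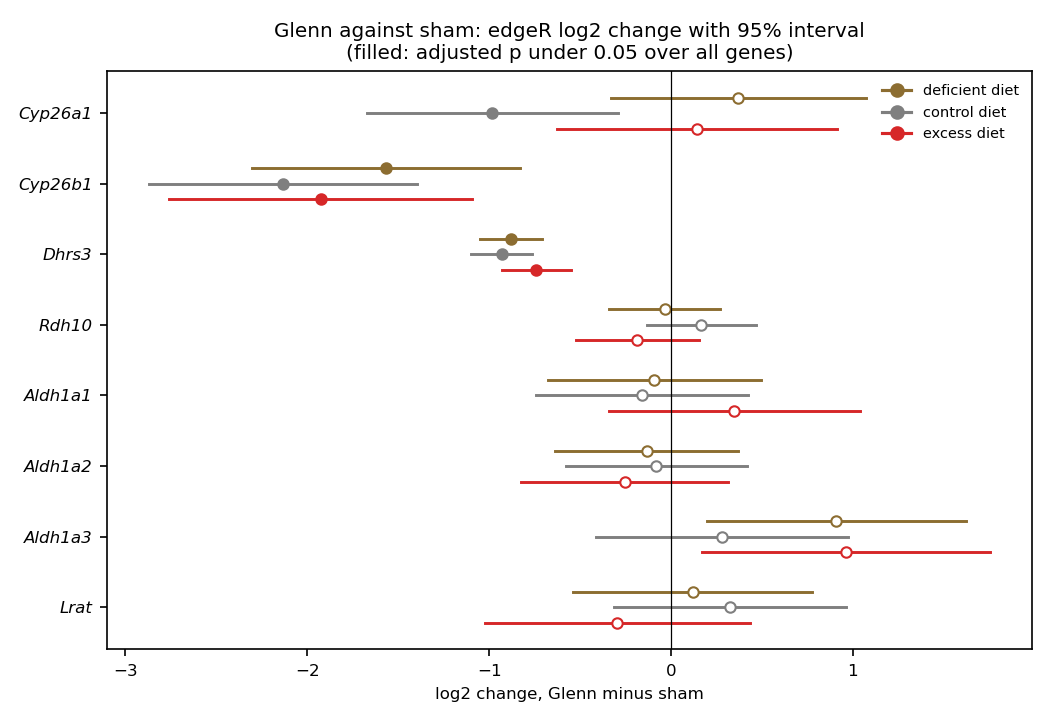
Log2 change from sham to Glenn surgery (horizontal axis) with its 95% interval for each enzyme on the deficient, control and excess diets; filled points have an edgeR adjusted p under 0.05 over all genes. Cyp26b1 and Dhrs3 are filled and below 0 on all 3 diets and Cyp26a1 on the control diet alone, while Rdh10, Aldh1a1, Aldh1a2 and Lrat span 0.

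The other 4 enzymes did not pass the threshold for surgery. In sham and Glenn libraries, Aldh1a2 was at 71.5 ± 27.6 and 70.8 ± 29.4 CPM, Aldh1a1 at 25.8 ± 8.84 and 24.9 ± 8.33 CPM, Rdh10 at 6.71 ± 1.19 and 6.48 ± 0.977 CPM and Lrat at 2.89 ± 0.999 and 3.23 ± 1.23 CPM (SD, n = 15 each). Rdh10, which makes retinaldehyde, had group means of 6 to 7.43 CPM. The 95% intervals of the surgical log2 change were -0.45 to 0.14 for Aldh1a2, -0.32 to 0.38 for Aldh1a1, -0.20 to 0.16 for Rdh10 and -0.33 to 0.43 for Lrat. Among RT1-CE16-low libraries, Aldh1a1 passed as lower after Glenn surgery (-0.42, edgeR adjusted p 0.0219).

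Genes whose levels ran most like each enzyme were sought across 12706 genes, by the lower of the Pearson r over 15 sham and over 15 Glenn libraries, as a description that shares library, depth and group effects. For Cyp26b1 the nearest gene was Dhrs3 itself (r 0.67 after sham and 0.65 after Glenn surgery), followed by Cflar (0.627 and 0.71) and Tsc22d1 (0.647 and 0.611). The nearest to Aldh1a2 were Rspo1 (0.981 and 0.957), Itgbl1 (0.955 and 0.955) and Gpm6a (0.953 and 0.98). Those of Aldh1a3 were C7 (0.818 and 0.87), Col6a5 (0.798 and 0.813) and Hgf (0.773 and 0.901), of which C7 was also near Aldh1a1 (0.729 and 0.713), after Vwa3a (0.929 and 0.715) and before Gstt3 (0.698 and 0.738). Cyp26a1 was nearest Psmg2 (0.676 and 0.64), Rgs5 (0.608 and 0.748), one of the mural markers, and Tspan8 (0.607 and 0.816). Dhrs3 was nearest Rdx (0.709 and 0.756), Slc29a1 (0.703 and 0.665) and Xpnpep2 (0.661 and 0.767), Rdh10 nearest Fam167a (0.706 and 0.681), Erp29 (0.751 and 0.648) and Nit1 (0.61 and 0.613), and Lrat nearest Slc30a1 (0.62 and 0.67), Rrn3 (0.592 and 0.602) and Nt5c2 (0.59 and 0.601). Between the 2 Cyp26 genes r was 0.605 after sham and 0.717 after Glenn surgery.

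Of 23 other retinoid enzymes, 18 were tested, and 0 passed the edgeR threshold in any diet comparison. At an edgeR unadjusted p under 0.05 were 1 to 6 of 18, against 5.18% to 13.9% of all genes. Averaged over diets, 4 were higher and 5 lower after Glenn surgery, against 48.2% of all genes called. The retinaldehyde reductase Rdh12 rose from 0.756 ± 0.319 to 10.3 ± 3.64 CPM (SD, n = 15 per operation; edgeR log2 change 3.79, SE 0.18, adjusted p 1.15e-16), and its operations did not overlap. Sdr16c5, a retinol dehydrogenase, rose by 0.90 (SE 0.22, edgeR adjusted p 0.00129). Lpl, a lipase that also frees retinol from its esters, fell by 1.64 (SE 0.12, edgeR adjusted p 2.25e-12) from 616 ± 118 to 196 ± 65.4 CPM (SD, n = 15 each), and the lipase Lipe fell by 0.59 (SE 0.11, edgeR adjusted p 3.98e-05). Aldh1a7, a near copy of Aldh1a1 with which reads may be shared, stayed at or below 1.6 CPM.

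All 12 retinoid carriers and receptors were tested, again with 0 past the edgeR threshold in any diet comparison. At an edgeR unadjusted p under 0.05 were 0 to 2 of 12, against 5.18% to 13.9% of all genes. Averaged over diets, 3 were higher and 4 lower after Glenn surgery, against 23.4% of all genes called higher and 24.7% lower. The retinoid binding proteins Crabp2 (log2 change 1.59, SE 0.25, edgeR adjusted p 5.06e-06) and Rbp7 (1.93, SE 0.31, edgeR adjusted p 7.96e-06) rose, from 0.893 ± 0.494 to 2.37 ± 0.999 CPM and from 0.366 ± 0.232 to 1.42 ± 0.745 CPM (SD, n = 15 each). The retinoic acid receptors Rarg (-0.73, SE 0.06, edgeR adjusted p 4.62e-11) and Rarb (-0.58, SE 0.08, edgeR adjusted p 2.52e-07) fell, from 41.8 ± 4.86 to 25.3 ± 2.53 CPM and from 53.1 ± 7.67 to 35.1 ± 5.82 CPM (SD, n = 15 each).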

How the data were processed

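RNA-seq libraries of CD31+ rat lung cells were made from PureLink RNA with the SMART-Seq Ultra Low v4 kit, per the labels' protocols. The unit of the deposited table is the estimated count, one per gene and library. The authors used Salmon and other tools (FastQC, Trim Galore, Picard and STAR) on builds mRatBN7.2 and rn7, per the submitters' processing notes, which give no versions; the role of each tool, the annotation and the strand setting are not given in the sources used here. All 30 columns were used. Reads of near-identical genes are shared out by an estimate, so Aldh1a1 and Aldh1a7 are uncertain.

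Counts (13.6% not whole) were rounded. Genes were kept by filterByExpr (minimum count 10, minimum total 15), scaled by TMM (0.938 to 1.062) and fitted in 1 quasi-likelihood model of edgeR 4.0.16 (R 4.3.3; robust) with 6 group means and the library series. P-values were adjusted by Benjamini-Hochberg over 16171 genes, and an adjusted p under 0.05 is called. SE is the log2 change over the square root of F. CPM values carry a TMM scaling. Marker scores are mean log2(CPM + 1) over 14 lists (3 to 7 genes each), related to the enzymes by 100000 permutations within each operation, across diets and series. Medians of log2 change over all genes were within 0.02 of 0.

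Named are the 8 enzymes, for the other retinoid lists the 2 genes per direction with the smallest adjusted p for surgery, and the 3 genes most like each enzyme. The members and lists were chosen with earlier results of these data known. Alternatives were DESeq2 1.42.0 and its size factors, limma 3.58.1 voom, no filter, no series term, series A alone, RT1-CE16 level (and sex) in place of series, a block for the replicate number, the compared groups alone, marker covariates, and leaving out each library; fits within each RT1-CE16 level were chosen after seeing the data. The test was tried on simulated data before use. Adh1, Adh4 and Bco2 matched no row by name, and Cyp26c1 and Rpe65 did not pass the filter.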

Additional observations from a re-analysis of the deposited data

Results flagged for a closer look

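Among 48 sets of 5 libraries (8 enzymes in 6 groups), 3 had 1 library well apart, and chance gives about 2.4 such sets. The value given is the distance to the next library divided by the range of the set. Cyp26b1 in sham deficient replicate 2 stood at 0.746, with 82.7 CPM against 29.8 to 43.3 CPM. Cyp26b1 in Glenn control replicate 1 stood at 0.783, with 45.6 CPM against 10.1 to 17.8 CPM. Cyp26a1 in the same library stood at 0.768, with 5.84 CPM against 1.44 to 2.46 CPM. Both genes were high together in that library.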

How the results depend on the processing

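Counts behind Cyp26a1 were 43 to 368 per library and those behind Cyp26b1 409 to 8768, so the spread between the 5 libraries of a group, more than counting, limits what can be called. The number of enzymes called for excess against deficient averaged over surgery (1) was 0 without a filter, in series A alone, with marker scores and in RT1-CE16-low libraries, and 0 to 1 with a library left out. After sham (0) it was 1 by DESeq2, 1 by voom and 0 to 1 with a library left out, and after Glenn (0) it was 1 in RT1-CE16-high libraries. For excess against control it was 1 by voom after sham (0), and after Glenn (0) it was 1 by DESeq2, 2 by voom, 1 in RT1-CE16-high libraries and 0 to 3 with a library left out. All genes called in this last comparison were 237 in the reported fit, 531 by DESeq2, 375 by voom and 18 in RT1-CE16-high libraries. For Glenn against sham the number of enzymes called was 1 in RT1-CE16-low libraries on the control (3) and deficient (2) diets, and 2 in RT1-CE16-high libraries on the control diet. All genes called on the control diet were 4023 in the reported fit, 1563 in RT1-CE16-low and 2497 in RT1-CE16-high libraries. On the deficient diet they were 4423 in the reported fit and 2398 in RT1-CE16-low libraries. The number of enzymes called was 3 on the deficient and excess (2) diets by DESeq2 and voom, and 3 on the deficient diet with no series term, with RT1-CE16 level (with or without sex) and with the groups compared alone. The labels do not say what a replicate number marks. Correlations of same-numbered libraries ran from -0.246 to 0.292 (medians 0.199, 0.11, -0.013, 0.127 and 0.052 for numbers 1 to 5), short of the rule that each be over 0.1, so the block was not used in the reported fit. After group means alone were removed, 15 of 30 libraries correlated best with one of their own number. Ddx3y was above 10 CPM in replicate 1 and below it in replicate 2 of all 6 groups. Replicates 1 and 2 were also series A and RT1-CE16-low in all 6 groups. A pairing by replicate number thus cannot be told apart from these splits. The number of such best matches to expect without pairing was not computed. With the replicate block, Cyp26b1 for excess against deficient averaged over surgery was 1.65 (edgeR adjusted p 0.0263), and the number of enzymes called was 3 instead of 2 for surgery on either the deficient or the excess diet. Signs turned in enzymes that gave no call. For Rdh10, excess against deficient was -0.032 after sham in series A, -0.034 with the groups compared alone and -0.03 in RT1-CE16-low libraries; after Glenn it was 0.024 in series A, 0.046 with marker scores and 0.028 in RT1-CE16-low libraries; averaged, it was -0.004 in series A and -0.001 in RT1-CE16-low libraries. For Lrat after Glenn it was -0.053 in series A, -0.05 in RT1-CE16-low libraries, -0.002 with the groups compared alone and -0.023 with the replicate block. For Aldh1a1 after Glenn it was 0.16 with marker scores and 0.21 in RT1-CE16-high libraries. For Aldh1a2 it was 0.006 after Glenn and 0.003 averaged with marker scores, which also gave 0.082 and 0.145 for excess against control after sham and after Glenn. For Glenn against sham averaged over diets, voom gave 0.043 for Rdh10 and -0.005 for Aldh1a1; Aldh1a1 was -0.046 with no series term, -0.24 in series A, -0.04 with RT1-CE16 level, -0.027 with that and sex, -0.54 with marker scores and -0.42 in RT1-CE16-low libraries; Aldh1a2 was 0.028 with no series term and Aldh1a3 -0.002 with marker scores. For the interaction, no series term gave 0.70 for Aldh1a2, -0.38 for Aldh1a3 and 0.15 for Lrat. Aldh1a2 was 0.20 with the replicate block and 0.006 with marker scores. Aldh1a3 was -0.13 in series A and in RT1-CE16-low libraries, -0.20 with RT1-CE16 level and -0.19 with that and sex, and Rdh10 was 0.057 in series A and 0.058 in RT1-CE16-low libraries. With a library left out, log2 changes that crossed 0 ran from -0.295 to 0.048 (Aldh1a2, sham), -0.133 to 0.016 (Rdh10, Glenn), -0.47 to 0.02 (Aldh1a1, Glenn), -0.144 to 0.269 (Lrat, Glenn) and -0.034 to 0.092 (Rdh10, averaged) for excess against deficient. For Glenn against sham averaged they ran from -0.059 to 0.018 (Rdh10), -0.044 to 0.137 (Aldh1a1) and -0.07 to 0.146 (Lrat), and for the interaction from -0.411 to 0.091 (Aldh1a2) and -0.333 to 0.476 (Aldh1a3). The cause of these shifts was not tested. Excess against any other diet after sham, and the averaged comparisons, could not be fitted in RT1-CE16-high libraries, which hold no sham excess library.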
